A study of Mus with 8 samples.

Results

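AMER1 and the proteins it works with in the destruction complex keep beta-catenin low, and the signals of their genes were read in B16F10 mouse melanoma cells with and without the compound Butyroside D. In the absence of a WNT signal, AXIN and APC form a scaffold on which CK1 alpha and then GSK3 beta phosphorylate beta-catenin, which is then ubiquitinated and degraded. AMER1 (APC membrane recruitment 1) binds APC, anchors it at the plasma membrane and favours the degradation of beta-catenin. When a WNT ligand engages Frizzled and LRP5 or LRP6, the complex is held at the membrane, beta-catenin accumulates, enters the nucleus and drives transcription with TCF and LEF factors. In melanocytes this pathway is known for its part in lineage specification and in the expression of Mitf.

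The set holds 10 genes, of which 9 have a transcript cluster of their own among 22206 on the array. Amer1 was chosen because its signal was lower in treated cells both in the array values and in the authors' deposited table of the comparison, and it was thus selected on measured values, which are given as a description without a test. The partners are the scaffolds Axin1, Axin2 and Apc, the kinases Gsk3b and Csnk1a1, beta-catenin itself (Ctnnb1) and the DNA-binding factors Tcf7, Tcf7l1 and Tcf7l2. The transcript cluster of Ctnnb1 also carries the symbol of a microRNA, so no value is given for it. That leaves 8 partners with values, and these were tested.

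The samples form 2 groups, 4 controls labelled as kept in medium and 4 samples labelled as kept with 2 µM Butyroside D, each for 48 h after seeding and each on 1 Mouse Clariom S array. All samples were the same line, B16F10, a pigmented melanoma line grown in RPMI medium. The treatment note attached to the control samples also mentions a lower dose, whereas medium alone stands in their titles and sources, which were followed. Values are log2 signals, so a difference of 1 is a doubling or halving. Whether each sample was a culture of its own is not stated, and the spread behind the p-values may be technical.

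Array medians lay between 5.30 and 5.44. The arrays fell into 4 close pairs, arrays 1 and 2 and arrays 3 and 4 of each group, which correlated at 0.9972 to 0.9985 within a pair and at 0.9861 to 0.9930 between pairs. Each group of 4 therefore rests on 2 close pairs, and the values of the treated pairs are given separately where they differ. Median signals of the antigenomic background probe sets lay between 4.69 and 5.17, and 5.17 is used below as the background limit. All 7 melanocyte markers (Tyr, Tyrp1, Dct, Pmel, Mlana, Sox10 and Mitf) had group means above it, with summed levels of 20.29 to 20.41 in controls and 20.23 to 20.65 in treated arrays. Group means reached it for 2 of 6 fibroblast markers, 0 of 6 keratinocyte markers, 0 of 6 leukocyte markers and 1 of 5 endothelial markers in controls. The test, limma with Benjamini-Hochberg adjustment over all 22206 transcript clusters and a threshold of 0.05, called 26 of them, or 0.117% (0.0766% higher and 0.0405% lower in treated arrays). It called none when the close pair was entered as a random block, where 890 had an unadjusted p under 0.05, and 0 to 5 when any 1 array was left out. The estimated correlation within close pairs was 0.81. Unless another fit is named, the SEs, intervals and p-values below treat the 4 arrays of a group as independent. They leave out the close pairing, and the SEs and intervals may therefore be too narrow.

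Amer1 was lower on every treated array than on every control array. Its log2 signals were 7.15, 7.35, 7.26 and 7.25 on control arrays 1 to 4, and 6.15, 6.09, 6.28 and 6.55 on treated arrays 1 to 4. The groups did not overlap, and the gap between the lowest control and the highest treated array was 0.60. The mean went from 7.25 ± 0.08 to 6.27 ± 0.21 (SD, n = 4 each), a difference of -0.99 that leaves 50.5% of the control signal on the linear scale. Relative to the control mean, treated arrays 1 and 2 were at -1.10 and -1.17, and treated arrays 3 and 4 were less far off, at -0.97 and -0.70. All 8 values were above the background of their own array, by 2.29 to 2.52 in controls and by 0.98 to 1.86 in treated arrays. In bulk RNA, fewer cells with a transcript and less of it per cell cannot be told apart.

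**Figure D1:**
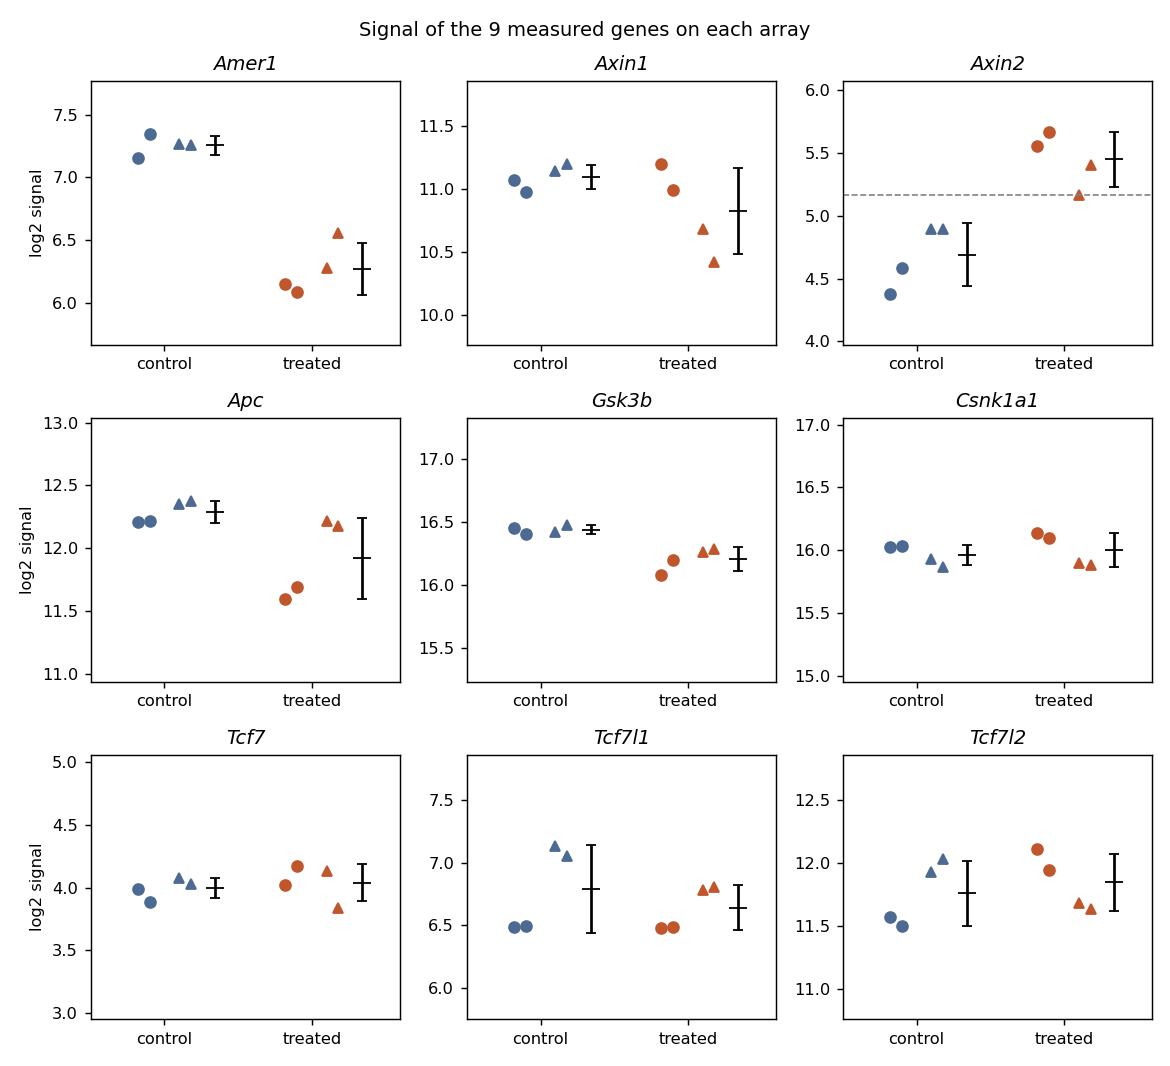
Log2 signal (y axis) of the 9 measured genes on each of the 8 arrays, with circles for arrays 1 and 2, triangles for arrays 3 and 4 of a group, and bars at the side for the mean ± SD of 4 arrays. Every panel spans the same range, the dashed line is the background limit of 5.17, and Amer1 and Axin2 show the widest separation of the groups.

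Among the scaffolds, Axin2 moved the other way in the measured values, but from a level at background. AXIN2 does the work of AXIN1 in the complex, and its gene is itself a target of beta-catenin and TCF in many cell types, which makes it a widely used readout of the pathway. Its log2 signals were 4.38, 4.59, 4.90 and 4.89 on control arrays 1 to 4, and 5.56, 5.67, 5.16 and 5.41 on treated arrays 1 to 4. Every treated array was above every control array, with a gap of 0.27. The control mean was 4.69 ± 0.25 and the treated mean 5.45 ± 0.22 (SD, n = 4 each). The difference of 0.76 ± 0.17 (SE) had the smallest p of the partners and did not pass the threshold, with an adjusted p of 0.0794 (limma; unadjusted p = 0.00104; 95% interval 0.39 to 1.13). With the close pair as a random block, the unadjusted p of Axin2 was 0.0167 and its adjusted p 0.9995 (limma).

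The control level of Axin2 is only bounded by these arrays. All 4 controls were below the background median of their own array and all 4 treated arrays were above theirs, by 0.39 to 0.72. Set against the controls' background in place of their own values, a mean of 4.88, the treated mean was 1.48-fold higher. This is a point estimate without an interval, and no smallest rise is read from it. The background medians themselves were not equal, at 5.17 and 5.07 on treated arrays 1 and 2, 4.70 and 4.69 on treated arrays 3 and 4, and 4.83 to 4.95 on controls, and their part in the Axin2 values was not tested.

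Apc and Axin1 were each lower on different treated arrays. For Apc, the large scaffold that AMER1 recruits to the membrane, the log2 signals were 12.21, 12.22, 12.35 and 12.38 on control arrays 1 to 4, and 11.59, 11.69, 12.22 and 12.17 on treated arrays 1 to 4. Treated arrays 1 and 2 lay below all controls, while treated array 3 fell within the control range and treated array 4 just under it. The difference over all arrays was -0.37 ± 0.17 (SE, n = 4 each), with an adjusted p of 0.281 (limma; 95% interval -0.74 to 0.0019). It was -0.65 for treated arrays 1 and 2 and -0.094 for treated arrays 3 and 4, each against the 4 controls.

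Axin1 encodes the scaffold whose amount limits the assembly of the complex. Its log2 signals were 11.07, 10.98, 11.15 and 11.20 on control arrays 1 to 4, and 11.20, 10.99, 10.68 and 10.42 on treated arrays 1 to 4. Here treated arrays 3 and 4 were below all controls and treated arrays 1 and 2 were at the level of the controls, the reverse of Apc. The difference was -0.27 ± 0.17 (SE, n = 4 each; adjusted p = 0.432 with limma; 95% interval -0.66 to 0.11). By pair it was -0.0015 for treated arrays 1 and 2 and -0.55 for treated arrays 3 and 4.

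The kinases differed less. Gsk3b, which encodes the kinase that marks beta-catenin for destruction, read 16.45, 16.40, 16.42 and 16.48 on control arrays 1 to 4, and 16.07, 16.20, 16.26 and 16.29 on treated arrays 1 to 4. All treated arrays were below all controls, by a gap of 0.12. The group means were 16.44 ± 0.03 and 16.20 ± 0.09 (SD, n = 4 each), and their difference was -0.23 ± 0.11 (SE; limma adjusted p = 0.309; 95% interval -0.49 to 0.018). Csnk1a1 encodes CK1 alpha, which primes beta-catenin for GSK3 beta. It read between 15.87 and 16.03 on controls and between 15.88 and 16.14 on treated arrays, and the groups overlapped. Its difference was 0.039 ± 0.12 (SE, n = 4 each), with a 95% interval of -0.23 to 0.31 (limma adjusted p = 0.894).

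**Figure D2:**
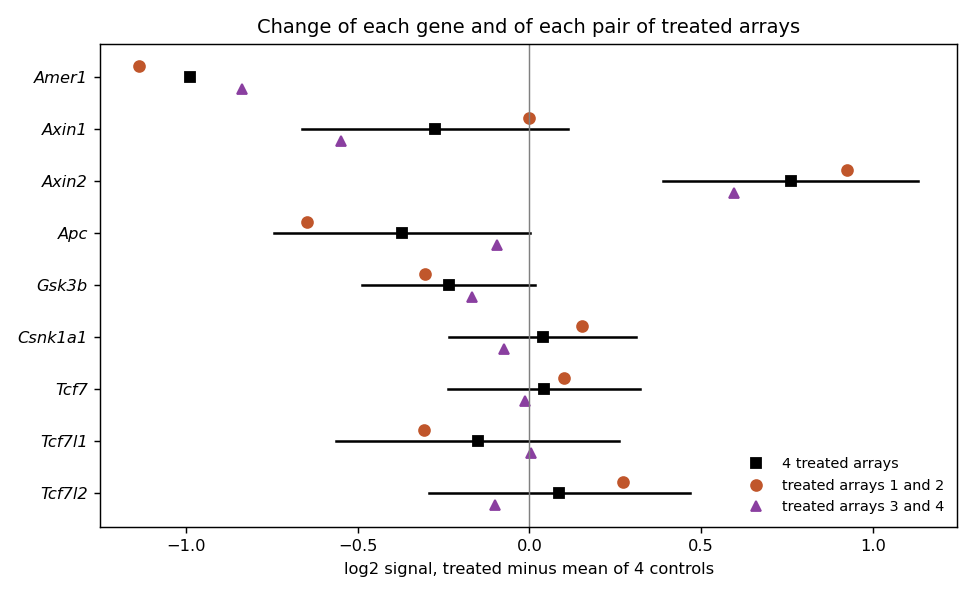
Difference in log2 signal (x axis) between treated arrays and the mean of 4 controls for each gene, with squares for all 4 treated arrays, circles for treated arrays 1 and 2 and triangles for treated arrays 3 and 4. Lines are 95% intervals from limma for the 8 partners and none is drawn for Amer1, which was chosen for its difference. The intervals treat the 4 arrays of a group as independent and leave out the close pairing. The interval of Axin2 lies above 0 before adjustment, and the treated pairs part most for Apc and Axin1.

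Of the 3 TCF genes, Tcf7l2 and Tcf7l1 did not differ beyond the spread of the arrays, and Tcf7 was too dim to read. Tcf7l2 encodes TCF4, a factor that turns from repressor to activator when beta-catenin binds it. It read 11.57, 11.50, 11.93 and 12.03 on control arrays 1 to 4, and 12.12, 11.95, 11.68 and 11.64 on treated arrays 1 to 4. Both groups spanned about the same range, with means of 11.76 ± 0.26 and 11.85 ± 0.23 (SD, n = 4 each). The difference was 0.088 ± 0.17 (SE; limma adjusted p = 0.816; 95% interval -0.29 to 0.47). Tcf7l1, which encodes the mostly repressive TCF3, read 6.49, 6.49, 7.13 and 7.05 on control arrays 1 to 4, and 6.48, 6.49, 6.78 and 6.81 on treated arrays 1 to 4. Arrays 1 and 2 of both groups were thus alike and low, and the gap of 0.60 between the control pairs was larger than the difference between groups, -0.15 ± 0.19 (SE; limma adjusted p = 0.700; 95% interval -0.56 to 0.26). Tcf7, which encodes TCF1, was below the background limit on all 8 arrays, between 3.84 and 4.17, and no change is read from it.

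Taken over the 8 partners, limma called 0 at an adjusted p under 0.05, against 0.117% of all transcript clusters. At an unadjusted p under 0.05 there was 1, Axin2, where 17.9% of all transcript clusters had one (9.84% higher and 8.07% lower). In 1 of 8 (Axin2) all treated arrays were above all controls, as in 6.98% of all transcript clusters, and in 1 of 8 (Gsk3b) all were below, as in 5.93%. Both directions together made up 12.9% of all transcript clusters. Positive and negative differences were equally frequent among the partners, 4 and 4, with a median of -0.056 beside 0.011 for all transcript clusters.

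The authors' deposited table gives its own average for each group, and its treated average could not be matched to the arrays. For 95.4% of transcript clusters its control average lay within 0.1 of the mean of the 4 control arrays, and for 23.7% its treated average lay within 0.1 of the mean of the treated arrays. Which samples its treated average was taken over is not known here, so the treated values, differences and FDRs of the authors' deposited table, those of Amer1 included, may not describe these 4 treated arrays. Since both sources use the same controls, they are given side by side only. In the authors' deposited table Amer1 had averages of 7.26 in controls and 6.43 in treated cells, a fold change of -1.77 in its signed notation or 56.5% of control. These values, with those of the arrays, are what chose the gene. The partner that parts most between the sources is Axin2, with averages of 4.72 and 4.71 in the authors' deposited table, a difference of -0.01 (FDR 0.990) where the arrays gave 0.76.

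The other partners had small differences in that source. Apc was at -0.21 (FDR 0.650), Axin1 at -0.20 (FDR 0.612) and Gsk3b at -0.09 (FDR 0.787) as log2 differences of the averages in the authors' deposited table. Csnk1a1 had a difference of -0.19 (FDR 0.624) in the authors' deposited table, opposite in sign to the arrays. For the TCF genes the authors' deposited table gave 0.12 for Tcf7l2 (FDR 0.849), -0.22 for Tcf7l1 (FDR 0.564) and 0.13 for Tcf7 (FDR 0.932), the last at background in both groups. Thus 0 of 8 partners had an FDR under 0.05 in the authors' deposited table, where 1.56% of all transcript clusters did.

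**Figure D3:**
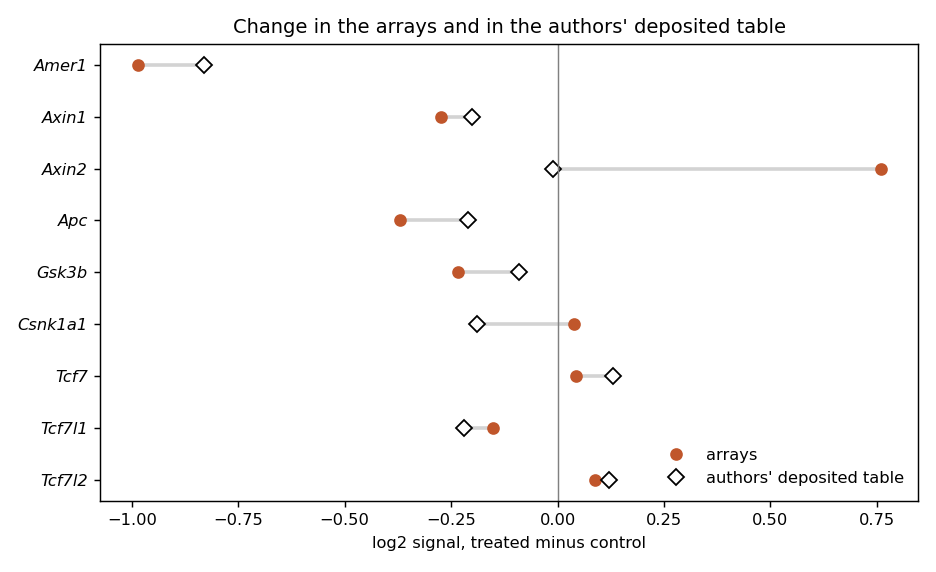
Difference in log2 signal, treated minus control (x axis), for the 9 measured genes, from the means of the 4 arrays per group (filled circles) and from the averages of the authors' deposited table (open diamonds). Amer1 is at -0.99 and -0.83, while Axin2 is at 0.76 in the arrays and at -0.01 in the authors' deposited table.

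Around the complex, 138 further genes were listed, 7 of them in more than 1 list, and 4 of them for other contacts of AMER1 rather than for the pathway. Of these, 134 had a transcript cluster of their own, while Ppp2ca, Dvl2, Rnf43 and Ccnd1 share one with another gene. None of the 134 passed the threshold in limma, against 0.117% of all transcript clusters. At an unadjusted p under 0.05, 10 were higher and 9 lower, or 19 of 134, beside 17.9% of all transcript clusters. Group means were below the background limit in both groups for 54 of them. Their median difference was -0.014.

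Among the other parts of the degradation machinery, 22 genes were measured, 3 of them below background in both groups, and 0 were called. Their median was 0.052. At an unadjusted p under 0.05 (limma), 1 was higher and 2 lower, beside 9.84% and 8.07% of all transcript clusters. The 1 higher was Amer3, which was below the background limit on all 8 arrays. The smallest p belonged to Usp34, a deubiquitinase that acts on AXIN. It read 13.54, 13.47, 13.29 and 13.27 on control arrays 1 to 4, and 12.26, 12.45, 12.81 and 12.84 on treated arrays 1 to 4. The groups did not overlap, and the difference was -0.80 ± 0.16 (SE, n = 4 each; limma adjusted p = 0.0766). Groups without overlap and with treated arrays lower made up 5.93% of all transcript clusters. Tnks2, a tankyrase that marks AXIN for degradation, had a difference of -0.44 ± 0.17 (SE), with overlapping groups and an adjusted p of 0.231 (limma). Amer2 and Amer3, relatives of Amer1 named here after their values were seen, were below the background limit on all 8 arrays. Gsk3a, the close relative of Gsk3b, also named after its values were seen, had a difference of 0.094 ± 0.14 (SE; limma adjusted p = 0.762).

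Upstream, most ligand genes were not above background. Of 21 genes for WNT ligands and their secretion, 17 had means below the limit in both groups, and 0 were called. Wls, the carrier that brings WNT proteins to the cell surface, had a control mean of 13.82 ± 0.20 and a treated mean of 13.51 ± 0.12 (SD, n = 4 each), with overlapping groups and an adjusted p of 0.276 (limma). Wnt5a, a ligand known mainly for signalling without beta-catenin, was at 5.70 ± 0.19 and 5.43 ± 0.31 (SD, n = 4 each; limma adjusted p = 0.433). The ligand gene Wnt9b, named after its values were seen, was also above the limit on all 8 arrays. It was at 6.22 ± 0.21 and 5.91 ± 0.70 (SD, n = 4 each; limma adjusted p = 0.609). By treated pair its difference was 0.28 for arrays 1 and 2 and -0.91 for arrays 3 and 4.

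The co-receptors differed in sign. Of 27 measured genes of the receptors and the membrane relay, 0 were called and 11 were below background in both groups. The median was 0.0071. At an unadjusted p under 0.05 (limma), 1 was higher and 1 lower, beside 9.84% and 8.07% of all transcript clusters. The 1 higher was Lgr5, which was below the background limit on all 8 arrays. Lrp6 read 13.97, 13.90, 14.19 and 14.12 on control arrays 1 to 4, and 13.40, 13.27, 13.72 and 13.75 on treated arrays 1 to 4. All treated arrays were below all controls, and the difference was -0.51 ± 0.15 (SE, n = 4 each; limma adjusted p = 0.137). For Lrp5 all treated arrays were above all controls, at a mean of 9.68 ± 0.10 against 9.42 ± 0.12 (SD, n = 4 each), and the adjusted p was 0.299 (limma). Groups without overlap, in either direction, made up 12.9% of all transcript clusters.

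Inhibitors at the cell surface had a median of -0.12 over 17 measured genes, of which 0 were called and 11 were below background in both groups. Znrf3, a ubiquitin ligase that removes Frizzled from the membrane and is also counted among the TCF targets, had a control mean of 10.16 ± 0.36 and a treated mean of 9.60 ± 0.21 (SD, n = 4 each; limma adjusted p = 0.185). Frzb, a secreted WNT antagonist, had a difference of -0.51 ± 0.24 (SE; limma adjusted p = 0.288), made of -0.94 on treated arrays 1 and 2 and -0.083 on treated arrays 3 and 4.

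In the nucleus, 0 of 19 cofactor genes were called, against 0.117% of all transcript clusters, with a median of -0.11. At an unadjusted p under 0.05 (limma), 1 cofactor was higher and 1 lower, beside 9.84% and 8.07% of all transcript clusters. Med12, a subunit of the Mediator complex, was lower on all treated arrays, at 9.16 ± 0.11 against 9.55 ± 0.16 in controls (SD, n = 4 each; limma adjusted p = 0.180). Ruvbl1, an ATPase that binds beta-catenin, was higher on all of them, at 13.07 ± 0.26 against 12.66 ± 0.08 (SD, n = 4 each; limma adjusted p = 0.203). Of all transcript clusters, 5.93% were lower and 6.98% higher on every treated array than on every control array. Lef1, the remaining gene of the TCF and LEF family, named after its values were seen, was below background on all 8 arrays.

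Other targets of beta-catenin and TCF were mixed in direction. Of 23 measured, 12 had a positive and 11 a negative difference, with a median of 0.048, and 0 were called. Group means were below the background limit in both groups for 11 of the 23. At an unadjusted p under 0.05 (limma), 3 were higher and 1 was lower, beside 9.84% and 8.07% of all transcript clusters. The 3 included Lgr5, named after its values were seen, which was below the background limit on all 8 arrays. The cyclin gene Ccnd2 read 15.46, 15.53, 15.24 and 15.13 on control arrays 1 to 4, and 16.30, 16.28, 15.51 and 15.63 on treated arrays 1 to 4. Its treated array 3 fell within the control range. The difference was 0.95 on treated arrays 1 and 2 and 0.23 on treated arrays 3 and 4, and 0.59 ± 0.21 (SE, n = 4 each) over all, with an adjusted p of 0.193 (limma).

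The 7 listed genes for beta-catenin at cell junctions all had negative differences, with a median of -0.18, and 0 were called. Of all 22206 transcript clusters 10763 had negative differences, and their median was 0.011. At an unadjusted p under 0.05 (limma), 1 junction gene was lower, Cdh1, beside 8.07% of all transcript clusters. The signs as a set were not tested. Of these genes, 3 were below the background limit in both groups. Cdh1, which encodes E-cadherin, was at 5.33 ± 0.31 in controls and at 4.85 ± 0.17 in treated arrays, the latter below the background limit (SD, n = 4 each; limma adjusted p = 0.203). Ctnna1, which encodes the alpha-catenin that links beta-catenin to actin, had a difference of -0.20 ± 0.22 (SE; limma adjusted p = 0.663). By treated pair the list's median was -0.44 for arrays 1 and 2 and -0.12 for arrays 3 and 4. On treated arrays 3 and 4 Cdh2 was at 0.17, Ctnna1 at 0.031 and Ctnnd1 at 0.24, while Cdh1 was at -0.39. Cdh2, Ctnna1 and Ctnnd1 were above the background limit on all 8 arrays. Cdh2 and Ctnnd1 are named here after their values were seen.

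Proteins that AMER1 is known to bind outside this pathway were read from a list of 4 genes, Keap1, Nfe2l2, Trp53 and Wt1, chosen for reported contacts of the human protein or for partners of those contacts. All 4 had positive differences, as had 11443 of all 22206 transcript clusters. Their median was 0.65, and 0 were called. At an unadjusted p under 0.05 (limma), 2 were higher, Trp53 and Wt1, beside 9.84% of all transcript clusters. The signs as a set were not tested. By treated pair the median was 0.89 for arrays 1 and 2 and 0.14 for arrays 3 and 4, each against the 4 controls. Trp53, the p53 tumour suppressor gene, read 12.61, 12.64, 11.98 and 11.94 on control arrays 1 to 4, and 13.43, 13.61, 12.39 and 12.46 on treated arrays 1 to 4. Nfe2l2, which encodes the oxidative stress factor NRF2, read 7.72, 7.78, 6.77 and 6.82 on control arrays 1 to 4, and 8.55, 8.54, 7.42 and 7.25 on treated arrays 1 to 4. For both genes arrays 1 and 2 of each group were higher than arrays 3 and 4, and the groups overlapped. Control arrays 3 and 4 minus control arrays 1 and 2 gave -0.66 for Trp53 and -0.95 for Nfe2l2. The differences by treated pair therefore depend on which controls they are set against. Adjusted p was 0.278 for Trp53 and 0.360 for Nfe2l2 (limma), and Wt1 was below background on all 8 arrays.

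**Figure D4:**
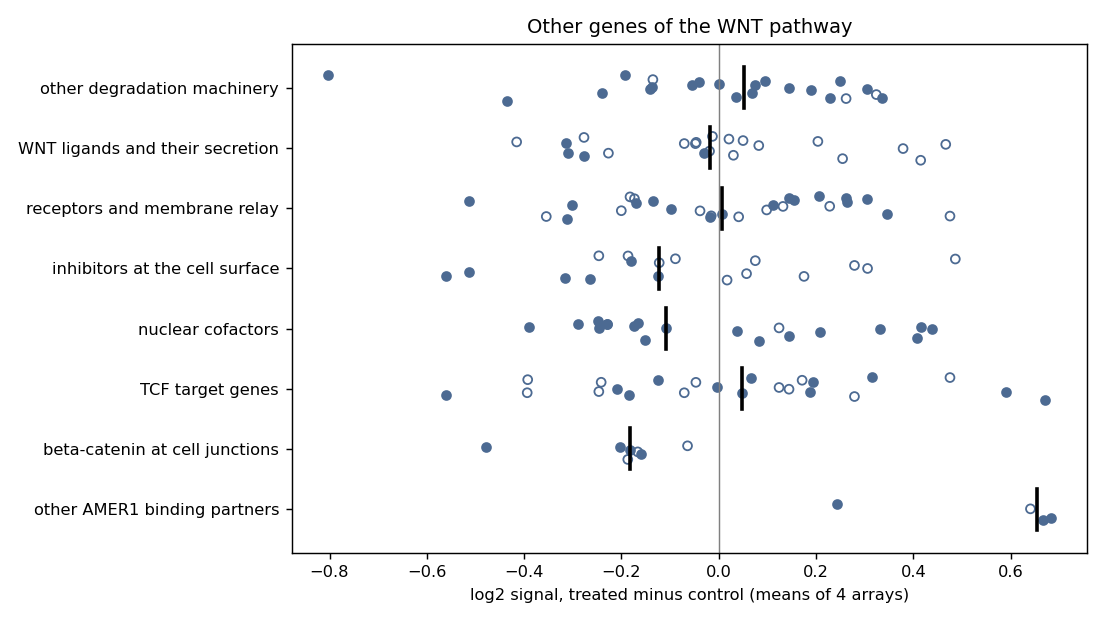
Difference in log2 signal, treated minus control (x axis, means of 4 arrays per group), for each measured gene of 8 lists around the destruction complex. Filled points have a mean at or above the background limit in at least 1 group, open points are below it in both, and bars mark list medians. Usp34 is the lowest point at -0.80, and no gene shown passed the threshold.

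Of these 134 genes, 1 had an FDR under 0.05 in the authors' deposited table, beside 1.56% of all transcript clusters. None of them passed as lower in the authors' deposited table, where 0.666% of all did. It was Ppp2cb, which encodes a catalytic subunit of the phosphatase PP2A, with averages of 10.86 and 11.96 in the authors' deposited table (FDR 0.0314), named after its value was seen. On the arrays Ppp2cb differed by 0.23 (limma adjusted p = 0.691). The treated pairs went opposite ways, at -0.33 for treated arrays 1 and 2 and 0.78 for treated arrays 3 and 4, each against the 4 controls. Usp34 had a fold change of -1.27 (FDR 0.275) and Lrp6 of -1.25 (FDR 0.307) in the authors' deposited table. Med12, at 1.02 (FDR 0.989), and Ruvbl1, at -1.10 (FDR 0.804), had the opposite sign there to the arrays, in the authors' deposited table.

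Genes beside Amer1 on the X chromosome had small differences. Those given here are Spin4, Zxda, Asb12, Zc4h2 and 1700010D01Rik, which lie near it where RefSeq lists mouse genes on assembly GRCm38.p6. Their differences lay between -0.26 (Zxda) and 0.27 (Spin4), all with overlapping groups and an adjusted p of 0.356 or more (limma). Asb12 and 1700010D01Rik were below background in both groups.

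The transcript clusters whose values ran most like those of Amer1 over the 8 arrays were sought among 5035 that had 1 known symbol, a mean at background or above in at least 1 group and an SD of at least 0.3 over the arrays. Pearson's r was used as the measure of likeness, with no test, since the 8 arrays are 4 close pairs in 2 groups and most of any high r is the difference between the groups. An r of 0.9 or more was found for 76 of them and an r of -0.9 or less for 155. The 5 most alike were Ppan, a ribosome assembly factor (r = 0.987), the ubiquitin ligase gene Trim45 (0.978), the class I MHC relative H2-T24 (0.977), the helicase gene Zgrf1 (0.976) and Cnksr2, a scaffold of RAS signalling (0.972). With group means subtracted, r with Amer1 was 0.81 for Ppan, 0.65 for Trim45, 0.86 for H2-T24, 0.90 for Zgrf1 and 0.69 for Cnksr2. The genes were picked for r over these same arrays. These values, and those of the opposite genes below, are therefore a description and no separate evidence of likeness. Ppan read 10.48, 10.54, 10.46 and 10.36 on control arrays 1 to 4, and 9.64, 9.69, 9.70 and 9.95 on treated arrays 1 to 4. Treated array 4 was the highest of the treated arrays, as for Amer1.

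The 5 most opposite were Tmem176a (r = -0.981), the peroxiredoxin-like gene Fam213a (-0.977), Cmas, which activates sialic acid (-0.976), Taf10, a subunit of TFIID (-0.976), and the helicase gene Recql4 (-0.975). With group means subtracted these values were between -0.54 and -0.70. In the authors' deposited table Zgrf1 had a difference of -0.81 and Taf10 of 0.90, while the other 8 lay between -0.51 and 0.27.

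**Figure D5:**
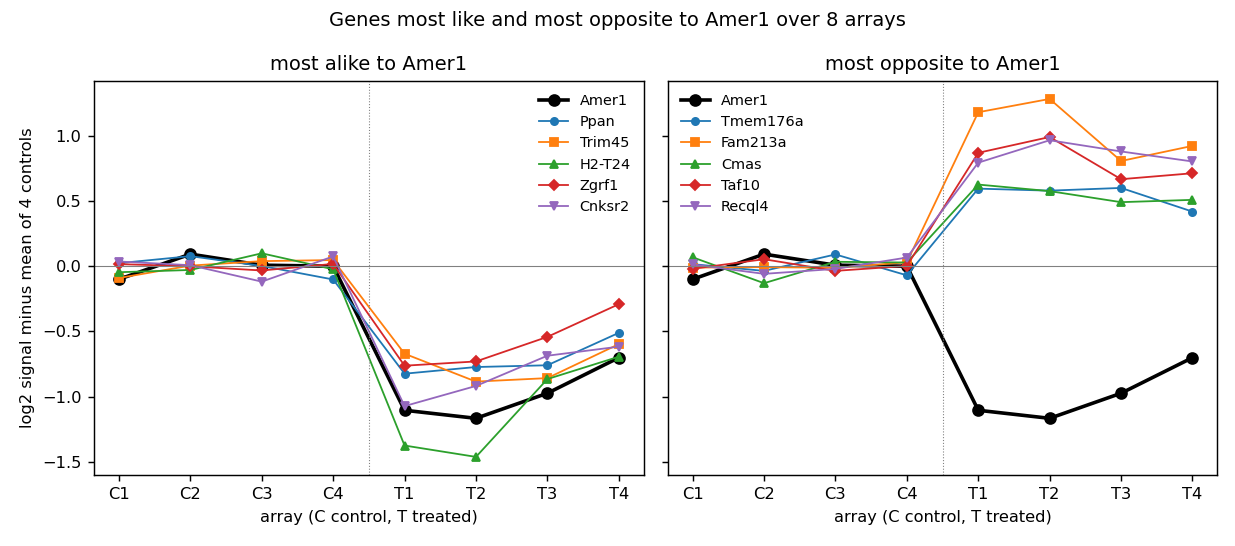
Log2 signal minus the mean of the 4 controls (y axis) on each array (x axis, C for control and T for treated) for Amer1 in black with the 5 genes of highest correlation (left) and the 5 of lowest correlation (right). All 5 genes on the left are below 0 and all 5 on the right above 0 on every treated array, and lines only join the values of a gene.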

How the data were processed

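Per the labels, 8 samples were profiled on Mouse Clariom S arrays, 4 controls and 4 treated. RMA, Transcriptome Analysis Console and Affymetrix Expression Console are named in the submitters' processing notes. The build behind the authors' array annotation is not given in the sources used here, and no coordinates are printed. RefSeq's gene table (GRCm38.p6) served only for symbols and for which genes lie near each other. Signals per array were deposited as log2 values. The authors' deposited table holds log2 group averages, a signed linear fold change (a score, as values below 1 are written as negative inverses), a p-value and an FDR from a test not named in the file headers. Clusters with several symbols were not named.

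Of 28846 features, 6640 control probe sets were set aside. Treated minus control was tested on 22206 transcript clusters by moderated linear models (limma 3.58.1, R 4.3.3) with 6 residual degrees of freedom, two-sided, adjusted by Benjamini-Hochberg. The fit was tested on simulated data. Background is the median of the antigenomic probe sets, the highest of the 8 arrays being 5.17. Precision is limited by the number of arrays. Alternatives were a replicate block, the close pair as a random block, pair means, other scalings, filters and priors, single treated pairs and leaving out each array. Named besides the members were the 2 genes of each list with the smallest p among those above background, the 5 most and 5 least correlated with Amer1, and genes near it, of which not all are reported here. RefSeq's table holds all 10 member symbols. Tests planned for 9 partners ran on 8, without Ctnnb1. Members and lists were chosen with earlier results of these data known.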

Additional observations from a re-analysis of the deposited data

Results flagged for a closer look

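In 5 of 80 groups of 4 arrays (40 named genes, 2 groups each), the gap between 1 array and its nearest neighbour, divided by the range of the group, exceeded Dixon's critical value. With independent arrays chance alone gives about 1 in 20, and close pairs are not independent. None of the 5 concerned Amer1 or a partner. Control array 2 was high for the Amer1 neighbour Asb12 (gap 0.941 of the range, a signal of 4.78 against 4.46 to 4.48). Control array 4 was high for Fam213a (0.866, 10.16 against 10.12), and control array 3 for H2-T24 (0.845, 7.36 against 7.22 to 7.24). Treated array 4 was low for Tmem176a (0.885, 8.29 against 8.45 to 8.47). Treated array 3 was high for Wnt5a (0.830, 5.88 against 5.24 to 5.35).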

How the results depend on the processing

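The difference of Amer1, which was chosen on these values, is given as a description. It lay between -1.14 and -0.84 over the alternatives and between -1.08 and -0.93 leaving out 1 array, while blocks, pair means, filters and priors cannot move a difference of group means. The number of transcript clusters called was 0 with the replicate block, with the close pair as a random block and with means of close pairs, 48 with each array centred on its median (40 higher, 8 lower) and 61 without dim transcript clusters (43 higher, 18 lower). Leaving out 1 array gave 0 to 5. With treated arrays 1 and 2 only it was 5502 (24.8%) and with treated arrays 3 and 4 only 881 (3.97%), in fits that ignore the close pairing. Of the 8 partners, 0 were called under 17 alternatives and 2 with treated arrays 1 and 2 only, a share (25%) near the 24.8% of all transcript clusters in that fit. These were Axin2 at 0.92 (adjusted p = 0.0105, limma) and Apc at -0.65 (adjusted p = 0.00937, limma). The adjusted p of Axin2 over all alternatives was 0.0105 to 0.9995. Of the 134 listed genes, 31 (23.1%) were called with treated arrays 1 and 2 only and 5 (3.73%) with treated arrays 3 and 4 only, shares near those of all transcript clusters, and 0 under the other 16. Genes with differences near 0 turned sign. Csnk1a1 was at -0.024 after quantile normalization. With treated arrays 3 and 4 only Csnk1a1 was at -0.075, Tcf7 at -0.014, Tcf7l1 at 0.0040 and Tcf7l2 at -0.099. Leaving out 1 array gave -0.0067 to 0.079 for Csnk1a1, -0.0013 to 0.11 for Tcf7 and -0.0022 to 0.18 for Tcf7l2. The cause was not tested. Same-numbered arrays of the groups are linked by the number in their titles, and whether they share anything else is not known. Their deviations from the group means correlated at 0.070 to 0.084. With the replicate block limma called 0 partners and 0 listed genes. Of the members, signal over background limits Axin2 and Tcf7.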
